A study of Mus musculus with 16 samples.

Results

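The contractile genes described here were 10 genes chosen by symbol, out of 48397 gene symbols in the count files. They were the actins *Acta2* and *Actg2*, the actin-binding proteins *Tagln*, *Cnn1* and *Cnn2*, the myosin light chain *Myl9*, the tropomyosins *Tpm1*, *Tpm2* and *Tpm4*, and the filamin *Flna*. RNA was sequenced from wild type primary hippocampal neurons of CD1 mice, prepared from pups 0 to 2 days old, with 4 cultures for each of 4 groups and 1 library a culture. All cultures received AraC, which kills dividing cells, at 3 days *in vitro* (DIV), and all received 10-fold concentrated medium of astrocytes at 10 and 13 DIV, with RNA taken at 17 DIV. The control neurons were given medium of immortalized *Apoe*-/- astrocytes, and the apoE2, apoE3 and apoE4 neurons were given medium of immortalized astrocytes that carry the respective human *APOE* allele on both chromosomes, so that the groups differ in the astrocyte line as well as in the lipoprotein. The comparisons ask how RNA levels in the presence of each apoE isoform differ from those in its absence and between isoforms. Of the 10 genes 9 passed the filter on low counts and were among 17038 genes tested, while *Actg2* had between 0 and 7 counts in a library and was not tested.

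Contractile force in smooth muscle cells and in pericytes, the mural cells that wrap blood vessels, comes from myosin pulling on filaments of smooth muscle actin. Tropomyosins lie along the actin filament, calponins and transgelin bind it, the regulatory light chain switches the myosin on once it is phosphorylated, and filamin crosslinks filaments and ties them to the membrane. Many of these genes share a control by serum response factor (SRF), which binds a short DNA element called the CArG box and is assisted by myocardin in smooth muscle and by the myocardin-related factors in most other cells. In brain tissue *Acta2*, *Tagln*, *Myl9* and *Cnn1* are best known from mural cells, whereas *Tpm1*, *Tpm4*, *Cnn2* and *Flna* are made by many cell types, astrocytes and neurons included.

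Counts on genes ranged from 14087723 to 34248172 a library, and levels are given below as CPM, that is counts relative to library size, with sizes scaled by the TMM method of edgeR. The libraries differed in these genes by replicate number, with numbers 1 and 4 mostly high and numbers 2 and 3 low, and number 4 stood above all others in *Acta2*, *Tagln*, *Cnn1* and *Tpm4*. In each of the 4 groups the highest *Acta2*, *Tagln*, *Cnn1*, *Cnn2*, *Tpm4* and *Flna* value was that of library 4, and the mean of the 4 libraries with number 4 exceeded the mean of those with number 2 by 81.0-fold for *Acta2*, 38.0-fold for *Tagln*, 16.2-fold for *Cnn1*, 10.1-fold for *Myl9*, 7.17-fold for *Cnn2*, 3.76-fold for *Tpm4* and 2.96-fold for *Flna*. The libraries with number 1 came next in most of these genes, with an *Acta2* mean 18.6-fold above that of number 2. Number 4 exceeded number 1 by 5.31-fold in *Cnn1*, 4.36-fold in *Acta2* and 3.73-fold in *Tagln*, but by only 2.45-fold in *Myl9*, 1.98-fold in *Tpm4*, 1.67-fold in *Cnn2* and 1.34-fold in *Flna*. *Tpm2* was highest in number 1, 7.03-fold above number 2, and *Tpm1* differed by only 1.30-fold between the highest and the lowest number. Libraries with the same number deviated together over all genes, clearly so for numbers 2, 3 and 4. Pairs of number 1 libraries correlated at 0.362 to 0.552, within the range of pairs with different numbers (−0.736 to 0.569). A second fit with the replicate number as a term is therefore given beside the fit without it wherever a call changed, together with values obtained without number 4.

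**Figure D1:**
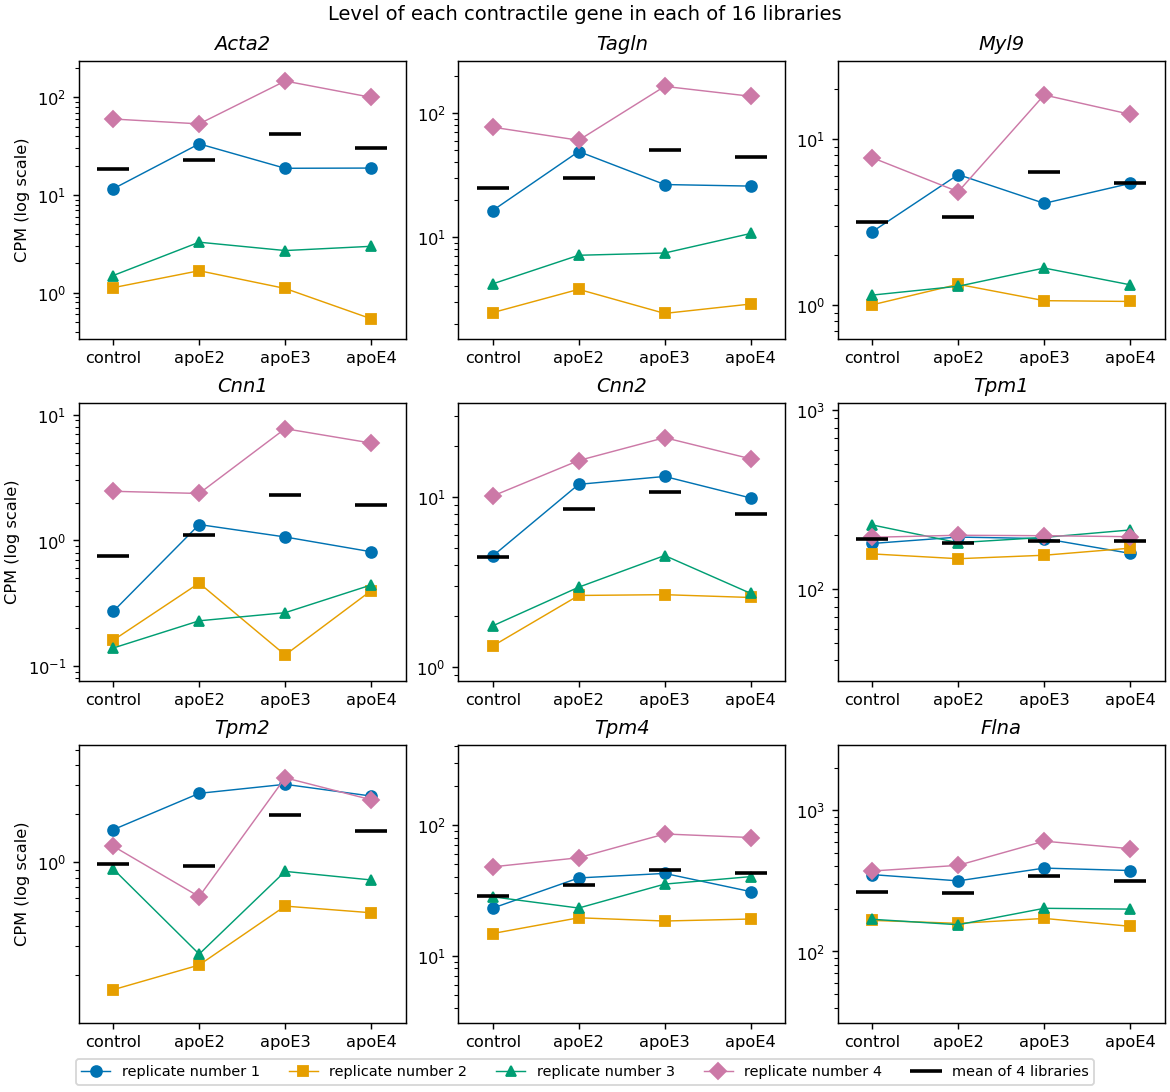
Level of the 9 tested contractile genes in CPM (y axis, log scale) in each of the 16 libraries, by treatment group (x axis). Coloured symbols joined by a line share a replicate number, and black bars are the mean of 4 libraries. *Acta2* in library 4 of the apoE3 group reached 147 CPM while library 2 of the same group held 1.11 CPM, and *Tpm1* stayed between 148 and 229 CPM throughout.

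Of the variance of log2 CPM over the 16 libraries, 95.6% lay between replicate numbers for *Acta2*, 94.1% for *Tagln*, 93.1% for *Flna*, 88.7% for *Myl9*, 85.3% for *Cnn2*, 83.8% for *Cnn1*, 83.2% for *Tpm4*, 72.4% for *Tpm2* and 70.8% for *Tpm1*, against a median of 56.1% over all tested genes. The share between treatment groups was 16.7% for *Tpm2*, 13.6% for *Cnn2* and 9.90% for *Tpm4*, against a median of 14.4% over all tested genes. In *Acta2* and *Tagln* it was 1.45 and 2.24%. *Cnn2* had the smallest part left over by number and group together among the 9 genes, at 1.13%.

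**Figure D2:**
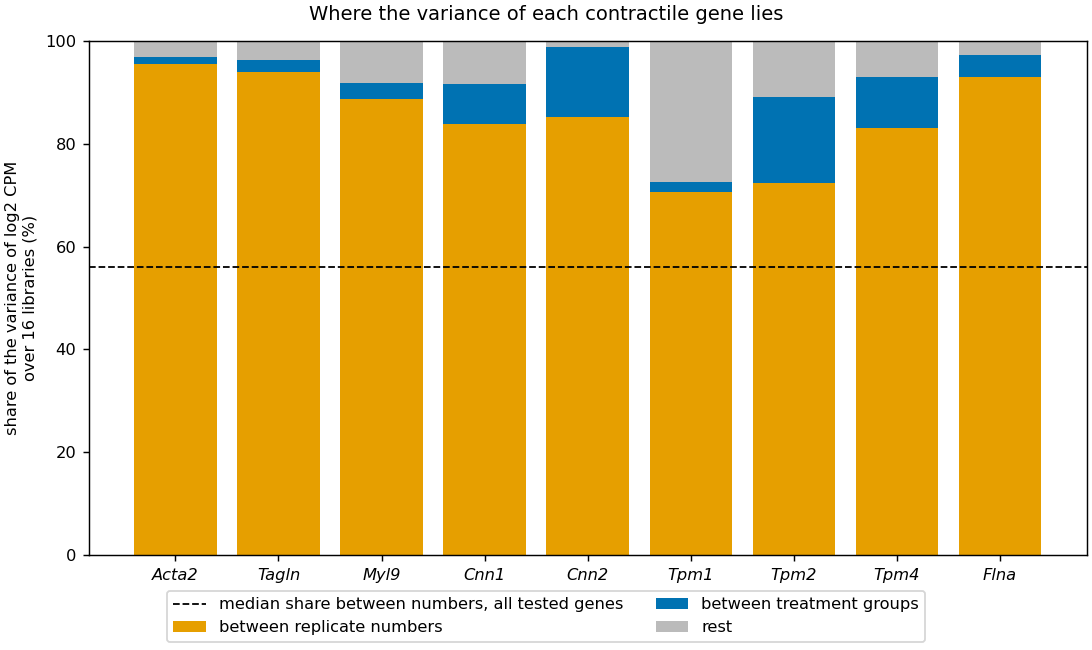
Share of the variance of log2 CPM (y axis, percent) that lay between replicate numbers, between treatment groups and in neither, for each tested contractile gene over 16 libraries. The dashed line is the median share between numbers over all tested genes, 56.1%, and every contractile gene lies above it.

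The genes covered a wide range of levels once length was taken into account. In RPKM, which divides CPM by exon length in kilobases, averaged over the 16 libraries, *Flna* stood at 31.4 ± 15.4 (SD, n = 16) and *Tpm1* at 28.6 ± 3.49, a pair in which *Flna* was the higher in 8 of 16 libraries. *Tagln* at 18.8 ± 25.1, *Tpm4* at 17.1 ± 9.58 and *Acta2* at 13.1 ± 19.3 followed. *Tagln* was above *Acta2* in 16 of 16 libraries, *Tpm4* above *Acta2* in 13 and *Tagln* above *Tpm4* in 5. *Myl9* stood at 3.96 ± 4.40, *Cnn2* at 3.22 ± 2.69, *Cnn1* at 0.554 ± 0.816, *Tpm2* at 0.468 ± 0.376 and *Actg2* at 0.0468 ± 0.0658 RPKM. For scale, the cytoplasmic actin *Actb* stood at 1260 ± 125 and *Actg1* at 168 ± 14.6 RPKM. The *Acta2* mean rested on the number 4 libraries, with 9.43, 0.507, 1.19 and 41.1 RPKM in numbers 1 to 4.

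The DNA just before the starts of these genes was read for CArG boxes, since this element is what the genes are thought to share. RefSeq windows of 300 bases (250 before the start to 50 after it, build GRCm38.p6) were on hand for 8 of the 10 genes. A box of 2 C, 6 bases that are each A or T, and 2 G, which reads the same on both strands, was present in the windows of *Cnn2* and *Myl9*, and in 1.63% of all 32851 windows. The *Cnn2* box lies on chromosome 10 from 79988544 to 79988553, 56 to 47 bases before the start, and the *Myl9* box on chromosome 2 from 156775303 to 156775312, 161 to 152 bases before the start. Allowing 1 base outside the pattern, which 21.1% of all windows then matched, added *Acta2*, *Tpm1* and *Flna* and left *Cnn1*, *Tpm2* and *Tpm4* without a match. The stretches of the genes with an exact box, and of *Acta2*, are printed 5′ to 3′ on the strand of the gene, with capitals for the box or near box. They are chr10:79988484-79988583 (plus strand), chr2:156775243-156775342 (plus strand), chr19:34255438-34255467 and chr19:34255388-34255417 (both minus strand), and the *Acta2* stretches lie in the first exon of a longer annotated transcript.
Cnn2: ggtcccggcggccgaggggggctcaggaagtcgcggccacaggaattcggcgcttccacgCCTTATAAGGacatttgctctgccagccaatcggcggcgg
Myl9: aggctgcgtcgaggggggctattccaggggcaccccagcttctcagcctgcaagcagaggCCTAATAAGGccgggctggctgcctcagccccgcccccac
Acta2, farther from the start: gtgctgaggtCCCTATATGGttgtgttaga
Acta2, nearer to the start: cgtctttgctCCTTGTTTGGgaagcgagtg

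Compared with the control neurons, edgeR without the replicate number called 0 of the 9 contractile genes at an adjusted p under 0.05 for apoE2, 0 for apoE3 and 0 for apoE4, where it called 0, 0.00587 and 0.194% of all tested genes. It also found 0 of them at an unadjusted p under 0.05, as it did 2.79, 6.43 and 3.3% of all tested genes, and DESeq2 called 0 in each comparison. With the replicate number as a term edgeR called 1 gene with apoE2 (*Cnn2*), 2 with apoE3 (*Cnn2* and *Tpm4*) and 1 with apoE4 (*Cnn2*), all higher than in the control neurons, against 1.73, 11.7 and 3.3% of all tested genes. At an unadjusted p under 0.05 these numbers were 3, 8 and 4 of 9, against 13.3, 27.5 and 16.6% of all tested genes. The cut-offs of the study, at least a 2-fold change with an unadjusted p under 0.05, were applied here to the p-values of edgeR, whereas the study took its p from a test of another kind. This criterion was met by 0 genes in each comparison without the replicate number (0.722, 1.96 and 1.15% of all tested genes). With it, 0 genes met the criterion with apoE2, *Cnn1* and *Cnn2* with apoE3 and *Cnn1* with apoE4 (1.56, 4.77 and 2.5% of all tested genes). The median log2 fold change of the 9 genes, in the fit with the number, was 0.30 for apoE2 against the control, 0.77 for apoE3 and 0.62 for apoE4, while that of all tested genes was 0.01, 0.02 and 0.00. Since the RNA is that of whole cultures, more cells of a type and more RNA per cell cannot be told apart in any of these differences.

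**Figure D3:**
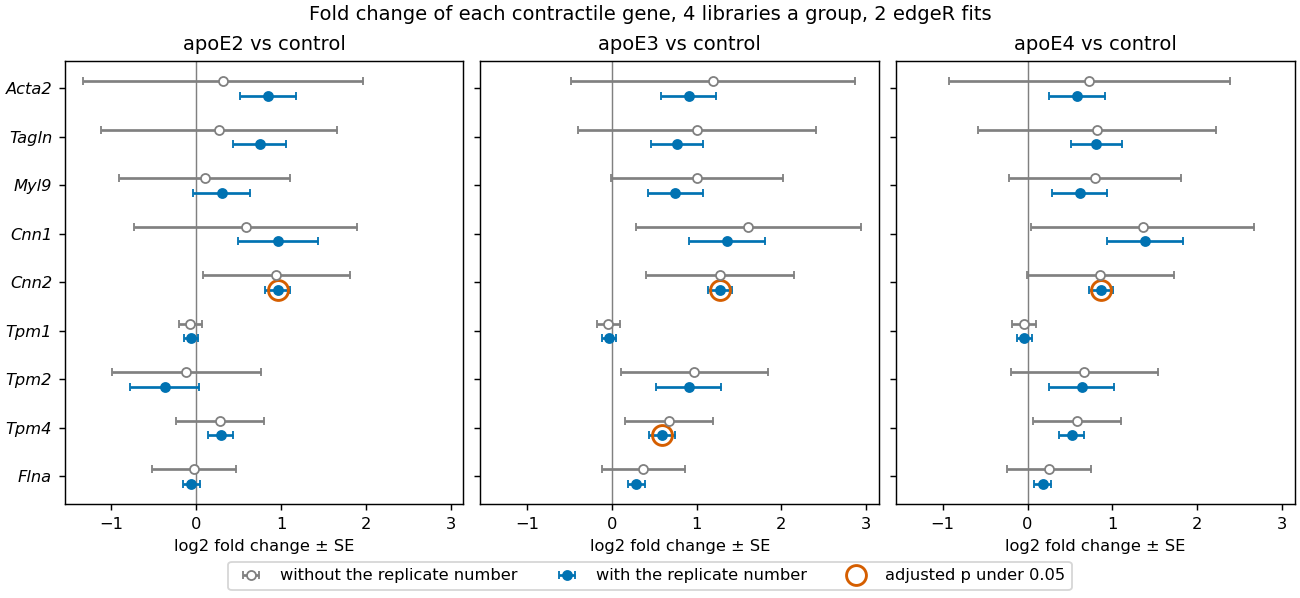
Log2 fold change against the control neurons (x axis, bars are ± 1 SE) of the 9 tested contractile genes, in the edgeR fit without (grey, open) and with (blue, filled) the replicate number, for 4 libraries a group. Orange rings mark adjusted p under 0.05, which *Cnn2* passed with each isoform and *Tpm4* with apoE3. The error of *Cnn2* with apoE3 shrank from 0.87 to 0.14 once the number was a term.

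*Cnn2* encodes calponin 2, an actin-binding protein of many cell types that move or attach, and is annotated on chromosome 10 from 79988584 to 79996062. In the control neurons it measured 4.50, 1.33, 1.75 and 10.2 CPM in libraries 1 to 4. It measured 11.9, 2.64, 2.95 and 16.5 CPM with apoE2, 13.3, 2.66, 4.53 and 22.4 CPM with apoE3, and 9.90, 2.57, 2.71 and 16.8 CPM with apoE4. The groups overlapped as wholes, while every treated library was above the control library of the same number, by 1.62- to 2.65-fold with apoE2, 2.01- to 2.94-fold with apoE3 and 1.55- to 2.20-fold with apoE4. In the edgeR fit with the replicate number *Cnn2* rose with apoE2 by a log2 fold change of 0.96 (SE 0.14, adjusted p = 0.00452). With apoE3 it rose by 1.28 (SE 0.14, adjusted p = 0.000159), and with apoE4 by 0.87 (SE 0.14, adjusted p = 0.00307). Without the number the values were 0.94, 1.27 and 0.86 with SE of 0.87 each and adjusted p of 1, 0.806 and 1.000, and in that fit *Cnn2* was not called. Leaving out the libraries with number 4 in the fit with the number gave 1.07, 1.34 and 0.92 with adjusted p of 0.00725, 0.00084 and 0.0175, where 4.14, 8.54 and 3.04% of all genes were called. The apoE3 call held in each of the 16 fits that left out 1 library and the 4 that left out a number. The apoE2 and apoE4 calls held in the same 16 and were lost without number 1, at adjusted p of 0.107 and 0.0591.

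*Acta2*, the smooth muscle α-actin and main marker of contractile mural cells, is annotated on chromosome 19 from 34241090 to 34255590. It measured 11.6, 1.13, 1.50 and 60.1 CPM in control libraries 1 to 4. With apoE2 the values were 33.5, 1.68, 3.29 and 53.6 CPM, with apoE3 18.8, 1.11, 2.70 and 147 CPM, and with apoE4 18.9, 0.542, 2.99 and 100.2 CPM. Libraries 1 and 4 were high and libraries 2 and 3 low in every group, and the groups overlapped fully. With apoE2, libraries 1, 2 and 3 were 2.89-, 1.49- and 2.19-fold above their control libraries and library 4 stood at 0.892-fold of its own. The edgeR log2 fold change with apoE2 was 0.32 (SE 1.65, adjusted p = 1) without the replicate number and 0.85 (SE 0.33, adjusted p = 0.264) with it. Without number 4 it was 1.20 (SE 0.25) and passed at an adjusted p of 0.0224. With apoE3 the fit with the number gave 0.91 (SE 0.33, adjusted p = 0.0835) and with apoE4 0.59 (SE 0.33, adjusted p = 0.394).

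*Tagln*, which encodes transgelin, an actin-bundling protein of smooth muscle, followed *Acta2* from library to library. It measured 16.4, 2.46, 4.19 and 77.0 CPM in control libraries 1 to 4, 49.0, 3.78, 7.12 and 60.4 CPM with apoE2, 26.5, 2.42, 7.43 and 164 CPM with apoE3 and 25.8, 2.88, 10.7 and 137 CPM with apoE4. Pearson's r between the log2 CPM of both genes was 0.99 over the 16 libraries and 0.84 once the mean of each number was subtracted, values that describe libraries with shared numbers. With apoE2, libraries 1, 2 and 3 were again above the control (2.99-, 1.54- and 1.70-fold) and library 4 was not (0.784-fold). The fit with the number gave a log2 fold change of 0.75 (SE 0.31, adjusted p = 0.297) with apoE2, 0.77 (SE 0.31, adjusted p = 0.115) with apoE3 and 0.81 (SE 0.31, adjusted p = 0.192) with apoE4, by edgeR. Without number 4 the apoE2 value was 1.08 (SE 0.24) and passed at an adjusted p of 0.0272. The *Tagln* exons on chromosome 9 (45929619 to 45936058) are overlapped, over up to 62.4% of their length, by *Pcsk7* and *Gm48529* on the opposite strand, and whether the counting used the strand is not given in the sources used here, so that reads of *Tagln* and of those genes cannot be told apart there. *Pcsk7* itself, looked at for this reason after values were seen, stayed between 21.5 and 29.2 CPM in all libraries.

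*Myl9*, the regulatory light chain of smooth muscle and nonmuscle myosin on chromosome 2 (156775420 to 156781658), was likewise high in libraries 1 and 4 and low in libraries 2 and 3, at lower levels, with library 1 above library 4 in the apoE2 group. Its values were 2.77, 1.01, 1.15 and 7.75 CPM in control libraries 1 to 4, 6.13, 1.34, 1.30 and 4.83 CPM with apoE2, 4.11, 1.07, 1.68 and 18.5 CPM with apoE3, and 5.42, 1.05, 1.33 and 14.1 CPM with apoE4. Its log2 fold change in the fit with the number was 0.30 (SE 0.34) with apoE2, 0.75 (SE 0.33) with apoE3 and 0.62 (SE 0.33) with apoE4, and the smallest edgeR adjusted p was 0.149. Every apoE3 and apoE4 library was above the control library of its number, by 1.05- to 2.39-fold.

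*Cnn1*, the calponin of differentiated smooth muscle on chromosome 9 (22099216 to 22109630), was sparse outside number 4. Libraries 1 to 3 held between 3 and 19 reads and library 4 between 47 and 118. Its values were 0.273, 0.161, 0.140 and 2.46 CPM in the control libraries, 1.34, 0.459, 0.230 and 2.37 CPM with apoE2, 1.07, 0.123, 0.267 and 7.74 CPM with apoE3, and 0.813, 0.399, 0.443 and 5.95 CPM with apoE4. With apoE4 each library was 2.42- to 3.17-fold above the control library of its number. In the fit with the number *Cnn1* had log2 fold changes of 0.96 (SE 0.47, adjusted p = 0.403) with apoE2, 1.36 (SE 0.45, adjusted p = 0.0613) with apoE3 and 1.38 (SE 0.45, adjusted p = 0.122) with apoE4, by edgeR. Its unadjusted p was 0.00827 with apoE3 and 0.00765 with apoE4, which with folds of 2.57 and 2.61 passed the cut-offs. Without the number the p was 0.244 and 0.320 and *Cnn1* did not pass. Leaving out the libraries with number 4 in the edgeR fit with the number gave 1.07 (SE 0.55, adjusted p = 0.262) with apoE3. With apoE4 the same fit gave 1.51 (SE 0.52, adjusted p = 0.156). The enteric and visceral smooth muscle actin *Actg2*, on chromosome 6 (83512905 to 83536265), gave 5 counts over the 4 control libraries and 7, 1 and 10 over those of apoE2, apoE3 and apoE4.

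**Figure D4:**
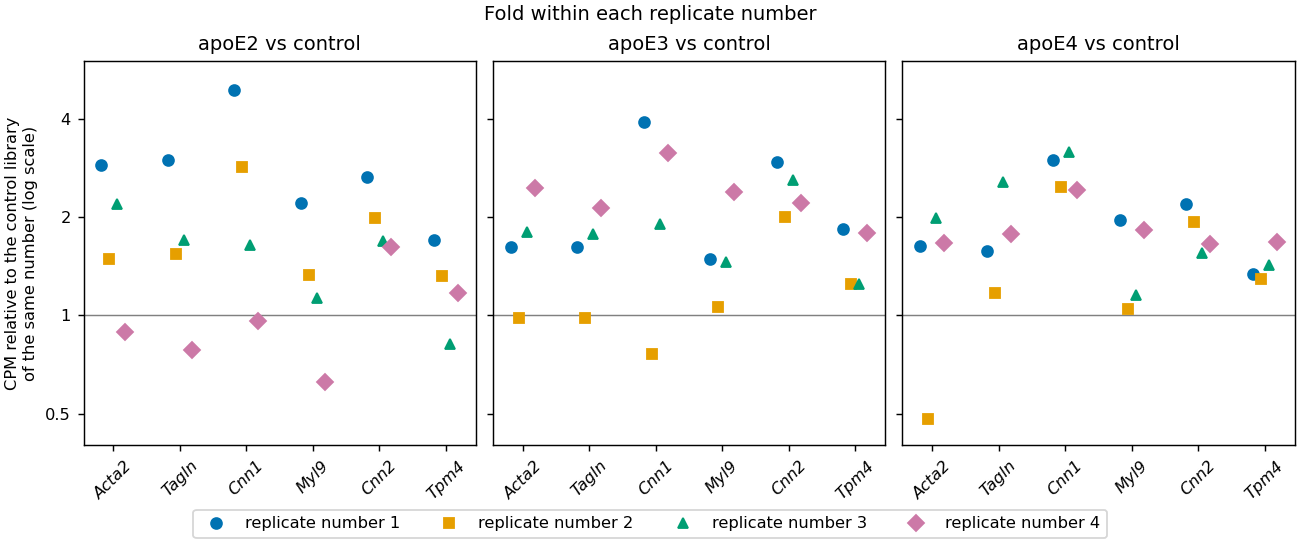
CPM of 6 contractile genes in each treated library divided by that of the equally numbered control library (y axis, log scale), with 1 symbol a number. With apoE2 the number 4 symbols of *Acta2*, *Tagln*, *Cnn1* and *Myl9* lie below 1 (0.892, 0.784, 0.961 and 0.623) while the other numbers lie above it, and all 12 *Cnn2* symbols lie above 1.

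The calls of *Acta2*, *Tagln* and *Cnn1* with apoE2 turned on a single library, apoE2 library 4. Leaving it out in the fit with the replicate number gave 4 calls with apoE2, namely *Acta2* at a log2 fold change of 1.36 (adjusted p = 0.00261), *Cnn1* at 1.69 (adjusted p = 0.0352), *Cnn2* at 1.02 (adjusted p = 0.00192) and *Tagln* at 1.16 (adjusted p = 0.00662) by edgeR, where 4.97% of all genes were called. Leaving out all libraries with number 4 instead called *Acta2* and *Tagln* but not *Cnn1* with apoE2 (log2 fold change 1.62, edgeR adjusted p = 0.101). Without the number as a term, leaving out apoE2 library 4 left 0 calls. In the fit without the number the *Acta2* value with apoE2 followed which group had lost its high library. It was −0.56 without apoE2 library 4 and 2.29 without control library 4, so that its sign carries nothing on the treatment. *Tagln*, *Cnn1*, *Myl9*, *Tpm4* and *Flna* changed sign in the same way. *Cnn2* stayed positive under both omissions (0.38 and 1.76), *Tpm1* stayed negative (−0.13 and −0.05) and *Tpm2* was 0.02 in both. The fit with the number and without this library called 6 genes with apoE3 (*Acta2*, *Cnn1*, *Cnn2*, *Myl9*, *Tagln* and *Tpm4*) and 3 with apoE4 (*Cnn1*, *Cnn2* and *Tagln*), against 15.9 and 5.82% of all genes. This library was also the deepest of the 16, at 34248172 counts, and the part of depth in these values was not tested.

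The tropomyosins, which coil along actin filaments and set which myosins and severing proteins can bind, did not move as a group. *Tpm4*, on chromosome 8 from 72134975 to 72153142, encodes a low molecular weight tropomyosin found in many nonmuscle cells. It measured 23.1, 14.8, 28.2 and 47.8 CPM in control libraries 1 to 4, 39.3, 19.5, 23.1 and 56.1 CPM with apoE2, 42.6, 18.4, 35.3 and 85.3 CPM with apoE3, and 30.9, 19.1, 40.2 and 80.1 CPM with apoE4. Every apoE3 and apoE4 library was above the control library of its number, by 1.25- to 1.84-fold with apoE3 and 1.29- to 1.68-fold with apoE4. In the fit with the number *Tpm4* rose with apoE3 by a log2 fold change of 0.59 (SE 0.15, edgeR adjusted p = 0.0216), and had 0.52 (SE 0.15, adjusted p = 0.0795) with apoE4 and 0.29 (SE 0.15, adjusted p = 0.459) with apoE2. The apoE3 call was lost when control library 1 or 4 or apoE3 library 1 or 4 was left out (adjusted p up to 0.103) and without number 1 (0.112) or number 4 (0.106), and without the number as a term it was 0.67 (SE 0.52, adjusted p = 0.810). DESeq2 with the number also called *Tpm4* with apoE4, at an adjusted p of 0.0335. Of the stretches of 50 bases in the *Tpm4* transcripts 11.7% also occur in *Gm7809*, and reads from those cannot be assigned to either.

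*Tpm1*, the most abundant of the 3 tropomyosins and one with muscle, glial and neuronal isoforms, varied little. Its lowest, median and highest levels were 158, 188 and 229 CPM in the control neurons, 148, 189 and 200.3 CPM with apoE2, 155, 193 and 199 CPM with apoE3, and 159, 183 and 214 CPM with apoE4. The log2 fold changes in the edgeR fit with the number were −0.06, −0.04 and −0.04 with SE of 0.09 each, and the 95% intervals reached from −0.25 to 0.12 with apoE2, −0.22 to 0.15 with apoE3 and −0.22 to 0.15 with apoE4. The counts add up all isoforms of *Tpm1* on chromosome 9 (67022590 to 67049406), so that a shift between isoforms would not show.

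*Tpm2*, the β-tropomyosin of skeletal and smooth muscle on chromosome 4 (43514711 to 43523765), was low, with 4 to 51 reads a library. It measured 1.59, 0.161, 0.907 and 1.26 CPM in control libraries 1 to 4, 2.68, 0.229, 0.268 and 0.610 CPM with apoE2, 3.05, 0.533, 0.876 and 3.35 CPM with apoE3, and 2.58, 0.485, 0.775 and 2.44 CPM with apoE4. With apoE2 *Tpm2* was above the control in libraries 1 and 2 (1.68- and 1.42-fold) and below it in libraries 3 and 4 (0.295- and 0.486-fold). Its log2 fold change in the fit with the number was −0.37 (SE 0.41) with apoE2, 0.90 (SE 0.38, unadjusted p = 0.0318, adjusted p = 0.139 by edgeR) with apoE3 and 0.64 (SE 0.39) with apoE4.

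*Flna*, the X-linked filamin A that crosslinks actin filaments beneath the membrane (chromosome X, 74223461 to 74249820), had 3602 to 16007 reads a library. It measured 349.9, 166, 169 and 371 CPM in control libraries 1 to 4, 316, 158, 155 and 407 CPM with apoE2, 389, 171, 202 and 603 CPM with apoE3, and 374, 151, 199 and 534 CPM with apoE4. The apoE3 libraries were 1.03- to 1.63-fold above the control libraries of their number. In the fit with the number the log2 fold change was −0.06 (SE 0.10) with apoE2, 0.29 (SE 0.10, unadjusted p = 0.011, adjusted p = 0.0726 by edgeR) with apoE3 and 0.18 (SE 0.10) with apoE4. Of these 9 genes *Flna* and *Tpm1* had the smallest errors, and neither passed the test in any comparison with the control neurons.

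Between isoforms, edgeR called 0 of the 9 genes in each of the 3 comparisons without the replicate number and 0 with it, where it called 0, 0.252 and 0.147% of all tested genes without the number and 1.31, 4.44 and 1.76% with it (apoE3 against apoE2, apoE4 against apoE2 and apoE4 against apoE3). At an unadjusted p under 0.05 the fit with the number held 3, 2 and 1 of the 9 genes and 15.9, 18 and 16.3% of all tested genes, and the fit without it 0 of the 9 genes in each and 2.28, 5.34 and 4.7% of all. *Tpm2* was 2.43-fold higher with apoE3 than with apoE2 (log2 fold change 1.28, SE 0.39, unadjusted p = 0.00533, adjusted p = 0.123) and 2.02-fold higher with apoE4 than with apoE2 (1.01, SE 0.40, adjusted p = 0.182). It passed the cut-offs of the study in both, as did 1.68 and 2.1% of all tested genes. Without number 4 its log2 fold changes in the fit with the number were 0.77 and 0.59, under 2-fold in both, so that it did not pass. Between apoE4 and apoE3 the criterion was met by 0 of the 9 genes and 2.1% of all, and without the number it was met by 0 of the 9 genes in each comparison, against 0.687, 1.3 and 1.25% of all. DESeq2 with the number called *Tpm2* (adjusted p = 0.04) and *Flna* (adjusted p = 0.0359) between apoE3 and apoE2. Without apoE2 library 1 the edgeR fit with the number called *Tpm2* higher with apoE3 than with apoE2 (log2 fold change 1.94, adjusted p = 0.0224) and higher with apoE4 than with apoE2 (1.68, adjusted p = 0.0204). The share of all genes called in either of these fits is not reported here, so that the calls cannot be set against it. *Cnn2* was lower with apoE4 than with apoE3 in 4 of 4 numbers, at 0.598- to 0.963-fold, with a log2 fold change of −0.41 and a 95% interval from −0.70 to −0.12 (edgeR adjusted p = 0.154). Between apoE4 and apoE2 the *Cnn2* interval ran from −0.38 to 0.20. For *Acta2* the intervals were wide, from −0.63 to 0.75 between apoE3 and apoE2 and from −0.99 to 0.35 between apoE4 and apoE3.

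Other genes of the same machinery were read from lists of relatives and SRF targets. Without the replicate number edgeR called 0 genes of any list against the control. The counts below are from the fit with the number, which called 1.73% of all tested genes for apoE2, 11.7% for apoE3 and 3.3% for apoE4. SRF itself and the cofactors *Mkl1* and *Mkl2* were tested and 0 of 3 were called with the number in any comparison with the control, and *Myocd*, which encodes myocardin, had 12 reads in all 16 libraries together. Of the other actins, tropomyosins, calponins and filamins, 0 of 7 tested were called for apoE2, 3 for apoE3 and 1 for apoE4, all higher. *Flnc*, the filamin of muscle, rose by 1.20 with apoE3 (SE 0.17, adjusted p = 0.000727) and by 1.27 with apoE4 (SE 0.17, adjusted p = 0.000655), and *Cnn3*, the calponin of neurons and glia, rose by 0.94 with apoE3 (SE 0.16, adjusted p = 0.00251), all on the log2 scale in the edgeR fit with the number. *Tpm3* rose by 0.24 with apoE3 (adjusted p = 0.0493). Of the actomyosin motor and its kinases, 0 of 12 were called for apoE2, 3 for apoE3 and 0 for apoE4. *Myh9*, a nonmuscle myosin heavy chain, rose by 0.55 with apoE3 (adjusted p = 0.00319) and *Myl12a*, a nonmuscle light chain, by 0.65 (adjusted p = 0.0109), whereas the kinase gene *Rock2* fell by 0.36 (adjusted p = 0.00504). The smooth muscle myosin *Myh11* had log2 fold changes of 1.42 with apoE2 and 1.31 with apoE4 at edgeR adjusted p of 0.0784 and 0.0901, from 121 reads in all libraries together, and passed the cut-offs of the study in both.

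Among 12 actin crosslinkers and focal adhesion genes known as SRF targets, 0 were called for apoE2, 6 for apoE3 and 3 for apoE4, all higher, in the edgeR fit with the number, beside 1.73, 11.7 and 3.3% of all tested genes. *Cald1*, which encodes caldesmon, rose by 0.71 with apoE3 (SE 0.13, adjusted p = 0.00378), *Tagln2* by 0.87 (SE 0.18, adjusted p = 0.00758), *Tln1*, which encodes talin, by 0.66 (SE 0.14, adjusted p = 0.00771) and *Pdlim7* by 0.50 (SE 0.12, adjusted p = 0.0187). The median log2 fold change of this list was 0.18 for apoE2, 0.47 for apoE3 and 0.32 for apoE4. Of 10 tested smooth muscle genes, which include *Cnn1*, 0 were called for apoE2 and 1 for apoE3, namely *Casq2* (log2 fold change 0.93, adjusted p = 0.0317). Of 10 tested immediate-early genes with SRF sites, 1 was called for apoE2, 5 for apoE3 and 0 for apoE4. *Ctgf*, also a target of the YAP pathway, rose with apoE2 by 1.55 (SE 0.28, adjusted p = 0.0122) and with apoE3 by 1.78 (SE 0.28, adjusted p = 0.00137), and *Cyr61* rose with apoE3 by 1.16 (adjusted p = 0.00935). In the same comparison the activity-regulated genes *Arc* and *Egr3* fell by 0.97 and 0.92 (adjusted p = 0.00266 and 0.0107), so that the SRF targets on this list went both ways.

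Markers of some of the cell types such a culture can hold also differed between replicate numbers, and not all in the same way. Neuron markers, 12 genes, summed to 3683 to 9277 CPM a library, and their median was 7933 CPM in number 2, 9024 in number 3, 5931 in number 1 and 4752 in number 4. The 10 fibroblast markers, 4 of them collagens, had medians of 206 and 224 CPM in numbers 1 and 4 and 28.7 and 28.9 CPM in numbers 2 and 3, the same split of numbers as in *Acta2*. The 10 pericyte markers had medians of 42.2, 17.8, 22.0 and 31.2 CPM in numbers 1 to 4, and their most specific members *Kcnj8*, *Abcc9* and *Higd1b* were under the filter, with means of at most 1.01 CPM in any number. *Pdgfrb*, a receptor on this list, averaged 4.17, 0.746, 0.901 and 6.38 CPM in numbers 1 to 4. *Notch3* (21.5, 4.06, 8.11 and 17.2 CPM) and *Cspg4* (6.34, 1.30, 2.60 and 5.76 CPM) were likewise higher in numbers 1 and 4. *Rgs5* of the same list ran the other way, at 6.11, 10.5, 10.5 and 3.83 CPM. The 8 vascular smooth muscle markers summed to 17.9 to 36.0 CPM with medians between 21.4 and 29.0 CPM in the 4 numbers. Within this sum *Itga8* ran against *Acta2*, at 11.7, 19.6, 12.8 and 8.09 CPM in numbers 1 to 4, while *Casq2* (3.31, 0.327, 1.61 and 7.76 CPM) and *Synpo2* (6.31, 2.37, 3.96 and 9.54 CPM) were highest in number 4 and lowest in number 2 as *Acta2* was, and *Myh11* averaged 0.294 to 0.332 CPM in every number. Microglia markers had medians of 15.7, 15.4, 9.36 and 32.6 CPM. The abundant glial lists were lowest in number 2 as *Acta2* was, with medians of 3350.1, 1497, 3125 and 4297 CPM for astrocytes and 776, 134, 271 and 691 CPM for the oligodendrocyte lineage in numbers 1 to 4. Endothelial markers, 8 genes, had medians from 2.72 to 8.06 CPM, and the defining *Cdh5* and *Cldn5* averaged at most 0.383 CPM. No marker was at 0 in all libraries. The part of these cell types in the differences of the contractile genes between numbers was not tested.

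**Figure D5:**
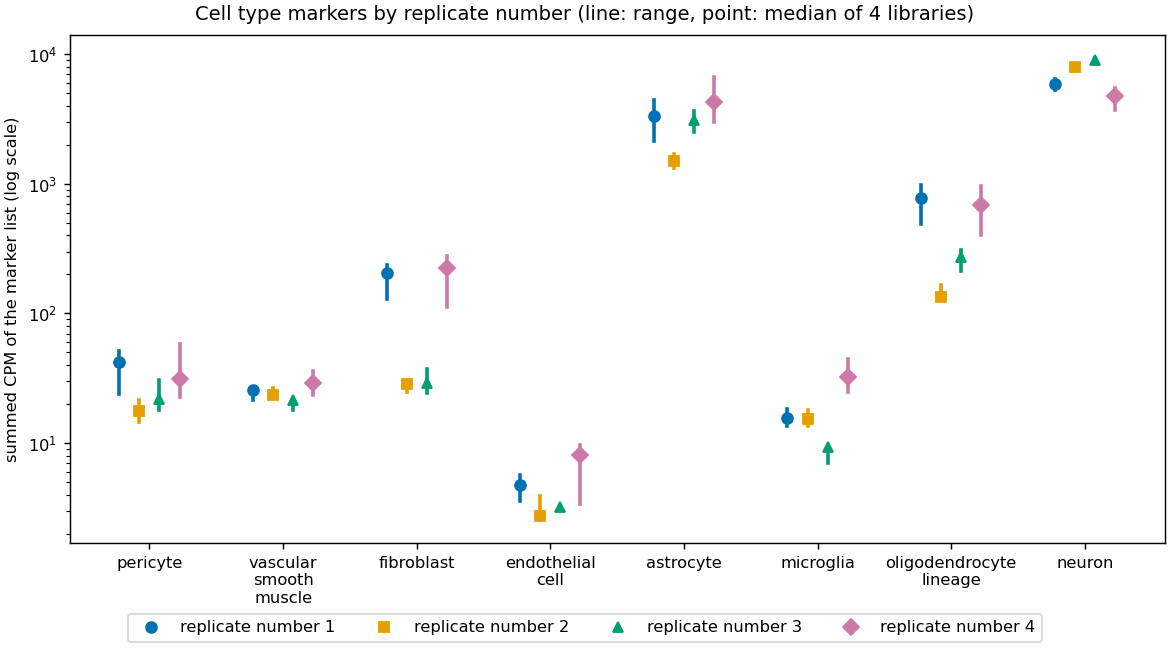
Summed CPM of 8 lists of cell type markers (y axis, log scale) in the 4 libraries of each replicate number, with a line for their range and a symbol for their median. Fibroblast markers stand at medians of 206 and 224 CPM in numbers 1 and 4 against 28.7 and 28.9 CPM in numbers 2 and 3, and neuron markers are lowest in number 4, at 4752 CPM.

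Marker levels also moved with treatment in the fit with the replicate number, which for apoE3 called 1354 of 17038 genes higher and 636 lower (11.7% together). With apoE3, 8 of 9 tested astrocyte markers rose, led by *Gfap* with a log2 fold change of 1.40 (SE 0.19, adjusted p = 0.000543), as did 4 of 9 oligodendrocyte markers, 3 of 9 fibroblast markers and 2 of 7 pericyte markers, and 3 of 12 neuron markers fell while *Tubb3* rose. The pericyte markers that rose were *Notch3*, by 1.25 with apoE3 (adjusted p = 0.00241) and 1.11 with apoE4 (adjusted p = 0.00861), and *Cspg4*, by 1.00 (adjusted p = 0.0038) and 0.84 (adjusted p = 0.0204). Both genes are also made by glial cells. With apoE4 4 astrocyte markers, *Col1a2* of the fibroblast list and *Flt1* of the endothelial list rose. With apoE3 1 vascular smooth muscle marker (*Casq2*) and *Flt1* passed the test, and with apoE2 0 of 66 tested markers did. Microglia markers were called in 0 of 8 cases with each isoform. The group medians of summed markers were 20.7, 21.9, 37.2 and 34.9 CPM for pericytes and 79.2, 69.6, 133 and 129 CPM for fibroblasts (control, apoE2, apoE3 and apoE4), with ranges that overlapped between all groups. The part of these marker changes in the higher *Cnn2* and *Tpm4* levels was not tested.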

How the data were processed

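RNA of 16 hippocampal neuron cultures was sequenced, with 4 libraries a group. The deposited values are raw counts of reads per gene symbol, which the authors made by mapping to mm10 with STAR and counting with HTSeq. The annotation and the strand setting are not given in the sources used here. Reads on no single gene, 38.4 to 73.7% of a library, were left out of library sizes, which leaves 14087723 to 34248172 counts. The paper describes the libraries of a group as separate cultures.

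Groups and replicate numbers came from the sample titles. Genes were filtered with filterByExpr (minimum count 10, total 15, proportion 0.7), scaled by TMM and tested with the quasi-likelihood test of edgeR 4.0.16 in R 4.3.3, in a fit that held all 16 libraries. The p-values of 17038 genes were adjusted by the method of Benjamini and Hochberg. The cut-offs of the study, at least a 2-fold change with an unadjusted p under 0.05, were applied to the p-values of edgeR in place of those of the study's own test. CPM on the log2 scale, as in the variance shares and correlations, uses a prior count of 2. Fold changes are those of the edgeR fit at its default prior count. The test was tried on simulated data first. Alternatives were DESeq2 1.42.0 and its size factors, no filter, a stricter filter (1 CPM in 8 libraries), fits of only the groups compared, the replicate number as a term, and leaving out each library and number. Exon lengths and positions came from GENCODE M21 (GRCm38), matched by symbol for 95.9% of symbols, and promoter windows from RefSeq.

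The titles give replicate numbers 1 to 4 in every group. Deviations from the group means correlated between libraries with the same number at 0.362 to 0.552 (number 1), 0.766 to 0.831 (number 2), 0.620 to 0.671 (number 3) and 0.682 to 0.790 (number 4), and between different numbers at -0.736 to 0.569, so that the numbers were taken to pair the libraries. The common dispersion was 0.132 without and 0.0178 with the replicate number. What the numbers stand for is not given in the labels.

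All 10 contractile genes were named, with at most 4 genes a list past a call and the 5 genes most correlated with the contractile genes. The contractile genes, the gene lists and the markers were chosen with earlier results of these data known. *Pcsk7*, *Pdgfrb*, *Rgs5*, *Itga8*, *Synpo2*, *Myocd*, *Kcnj8*, *Abcc9*, *Higd1b*, *Cdh5* and *Cldn5* were named outside this rule after their values were seen. The fits that leave out libraries with the replicate number as a term, DESeq2 with that term, and the search for CArG boxes with 1 base outside the pattern were chosen after seeing the data. The smooth muscle list is not reported here for apoE4.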

Additional observations from a re-analysis of the deposited data

Results flagged for a closer look

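In 40 sets of 4 libraries, a contractile gene in a treatment group, a single library stood far from the other 3 by Dixon's test in 8. Chance flags about 5% of independent sets, but these sets share 16 libraries and number 4 was high in every group in most of the genes, so that the 8 are not to be set against that share. Library 4 was the high one in 6 of them. In the apoE3 group it held *Acta2* at 147 CPM with the next library at 18.8 CPM, *Tagln* at 164 CPM with the next at 26.5 CPM, *Cnn1* at 7.74 CPM with the next at 1.07 CPM, and *Actg2* at 0.0656 CPM, which was 1 read, with the others at 0. *Cnn1* was likewise high in library 4 of the control group (2.46 CPM, next 0.273 CPM) and of the apoE4 group (5.95 CPM, next 0.813 CPM). *Tpm1* was low in apoE3 library 2, at 155 CPM with the next at 192 CPM, and *Tpm2* was high in apoE2 library 1, at 2.68 CPM with the next at 0.61 CPM.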

How the results depend on the processing

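Without the replicate number the contractile genes called at an adjusted p under 0.05 stayed at 0 in each of the 6 comparisons under DESeq2, DESeq2 size factors, either other filter, fits of only the groups compared, and every left-out library or number (0 to 0). With the number as a term (replicate block, paired by number) edgeR called 1 with apoE2, 2 with apoE3 and 1 with apoE4 against the control and 0 between isoforms, and the criterion (the cut-offs of the study on edgeR's p-values) was met by 2 genes with apoE3, 1 with apoE4, 1 for apoE3 against apoE2 and 1 for apoE4 against apoE2. DESeq2 with the block called 2 with apoE4 and 2 for apoE3 against apoE2, and 1 gene (*Cnn1*) then met the criterion with apoE2. The share of all genes that DESeq2 called with the block is not reported here. Leaving out 1 library or number in the blocked fit gave 0 to 4 calls with apoE2, 1 to 6 with apoE3, 0 to 3 with apoE4, 0 to 1 for apoE3 and for apoE4 against apoE2 and 0 for apoE4 against apoE3. For the criterion the blocked ranges were 0 to 4, 1 to 4, 1 to 2, 0 to 1 and 0 to 1 in the same order, and the unblocked ranges 0 to 0 with apoE2, 0 to 2 with apoE3, 0 to 1 with apoE4, and 0 to 1 for apoE3 and for apoE4 against apoE2. The cause of these changes was not tested. Of 310 fold changes of single contractile genes under other settings 298 kept their sign and side of the threshold, 4 passed it with the block and 8 small uncalled ones changed sign. Of 1080 with libraries left out 971 kept both. The stricter filter left no value for *Cnn1* and *Tpm2*. Over all genes, DESeq2 called 32, 60, 91, 9, 165 and 69 where edgeR called 0, 1, 33, 0, 43 and 25 (apoE2, apoE3 and apoE4 against the control, apoE3 and apoE4 against apoE2, apoE4 against apoE3), and the block gave 294, 1990, 563, 224, 757 and 300. Fits of only the groups compared called 0, 0, 0, 0, 3 and 1, and no filter gave 16 for apoE4 against apoE3. *Actg2*, *Cnn1* and *Tpm2* had few counts in most libraries.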

Other observations

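The genes outside the list that tracked the mean of the 9 contractile genes most closely over the 16 libraries were *Ctsz*, a lysosomal protease, *Jam3*, a junction protein, *Pdpn*, which encodes podoplanin, *Pcyt1a*, an enzyme of phosphatidylcholine synthesis, and *Gas6*, a ligand of the TAM receptors, with Pearson's r of 0.99 each. *Ctsz* averaged 36.6, 8.86, 14.9 and 62.2 CPM in numbers 1 to 4 and *Pdpn* 29.5, 6.69, 13.9 and 65.7 CPM, the same order of numbers as in *Acta2*. After the mean of each number was subtracted, the closest were *Ctsz* (r = 0.97), *Shc1*, *Jam3*, *S100a16* and *Trip6*. These libraries share replicate numbers and treatments, so that r is a description over 16 libraries. Each contractile gene is itself part of that mean, which raises its own r, so that these values are not to be set beside those of the other genes. Among the contractile genes, *Tpm4* (0.94), *Cnn1* (0.89) and *Tagln* (0.88) lay closest to the mean within numbers and *Tpm1* (0.18) farthest from it.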
